A study of Mus musculus with 6 samples.

Results

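The genes described here encode the matrix metalloproteinases (MMPs), their tissue inhibitors (TIMPs) and the ADAMTS proteases. They were chosen by gene symbol in the count table, which gave 45 of its 57010 genes, namely 22 Mmp, 4 Timp and 19 Adamts genes. RNA had been sequenced from monocytes of the bone marrow of the mandible (libraries S16, S19 and S23) and of the femur (libraries S13, S15 and S18), with 3 libraries per skeletal site. The mice were C57BL/6 animals (C57BL/6J in the study's methods) of both sexes, 1 year old, and no treatment of them is given. Monocytes were obtained by negative selection, as the cells that passed a magnetic column while antibodies held back other marrow cells. Neither the animal nor the sex behind each library is given in the sources used here, so that p-values measure the spread between these libraries, which may be technical.

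MMPs are zinc-dependent proteases that cut collagens, gelatins and other proteins of the extracellular matrix, and TIMPs bind to their active site and block it. ADAMTS proteases carry thrombospondin repeats and cut matrix proteoglycans such as aggrecan and versican, trim the ends of procollagens, or cleave von Willebrand factor. In bone and teeth these genes are known from osteoblasts, fibroblasts, chondrocytes and osteoclasts, while neutrophils store Mmp8 and Mmp9 proteins in their granules.

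The libraries held 15718782 to 25371474 counts on genes. Values are given as counts per 1000000 after TMM scaling (CPM), and a count of 0 allows up to 3 counts, or 0.133 to 0.172 CPM, which covers counting error only. Femur library S15 stood apart, with a count in 40494 genes against 17481 to 23513 in the other 5 libraries, and it was the sole library with a count in 13454 genes. It also had a count in 44 of the 45 members, against 27 to 38 in the others. Mandible library S23 stood apart in the transcripts of the sex chromosomes, with 1441 CPM of Xist and no count of Ddx3y, where the other libraries had at most 0.553 CPM of Xist and at least 840 counts of Ddx3y. No femur library had the pattern of S23, so the pattern was not balanced between the sites. Its part in the members' values was not tested. The 10 monocyte markers summed to 1929 to 2889 CPM in the femur and 1649 to 3354 CPM in the mandible, and all were tested and none was called.

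Markers of other cells moved with the skeletal site. The 14 osteoblast and mesenchymal markers, Col1a1 among them, summed to 347 to 445 CPM in the femur and 8922 to 15347 CPM in the mandible, with 13 called higher in the mandible. The remaining marker, Cxcl12, had a mean of 190.0 CPM in femur libraries against 71.1 CPM in mandible libraries and was not called. The 7 markers of tooth-forming cells summed to at most 2.63 CPM in the femur and 5720 to 11223 CPM in the mandible (6 called higher), and the 6 skeletal muscle markers to at most 15.5 and 1194 to 3870 CPM (6 called higher). The 6 markers of epithelium summed to 9.26 to 11.9 and 92.5 to 128.9 CPM (2 of 5 tested called higher), and the 6 of chondrocytes to 11.0 to 28.0 and 121 to 221 CPM (2 of 3 tested called higher, with Matn3 at 3 counts or fewer in every library). Osteoclast markers summed to 100.6 to 107 CPM in the femur and 126 to 200.2 CPM in the mandible, with 0 of 5 tested called. Platelet markers went the other way, from 529 to 850 CPM in the femur to 72.0 to 104 CPM in the mandible, with 4 of the 5 tested called lower. Whether these cells carried the members' RNA was not tested, and in bulk RNA more cells of a type and more RNA per cell cannot be told apart.

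In the libraries of mandibular-derived monocytes 12 of the 45 members were higher than in those of femur-derived monocytes, and 0 were lower. They were Mmp2, Mmp13, Mmp14, Mmp16, Timp2, Adamts1, Adamts2, Adamts4, Adamts5, Adamts9, Adamts16 and Adamts17, with 7.68 to 84.1 times the mean CPM of the femur. The remaining 33 members divided into 21 that were tested and not called and 12 with too few counts to be tested. A call required an adjusted p (edgeR's quasi-likelihood test, Benjamini-Hochberg) under 0.05 together with a difference of at least 2-fold. Over all 18114 tested genes 3.88% were called higher and 1.3% lower in the mandible, 5.18% in all. The share called higher was 36.4% of the 33 tested members, and a member that was low in the femur entered the test through its mandible counts. In the direction of lower expression, 0 members had an unadjusted p under 0.05, and DESeq2 and limma-voom also called 0. The number of higher members was 13 under DESeq2 and 6 under limma-voom (Mmp2, Mmp13, Mmp14, Timp2, Adamts2 and Adamts9). Over all 18114 tested genes DESeq2 called 1099 higher and limma-voom 507, against 702 by edgeR. The median log2 fold change of the tested members was 2.34, against -0.038 over all tested genes. Every mandible library lay above every femur library in 15 tested members, where 12.7% of all tested genes showed this, and the reverse was seen in 0 tested members, where 11.5% of all genes showed it. Leaving out mandible library S19 or S23 lowered the number of higher members to 7 in each case, and leaving out femur library S15 gave 13. The calls over all genes moved the same way. They were 376 of 19979 tested genes without S19, 388 of 19561 without S23 and 957 of 18742 without S15. The median was 0.74 with no filter on low counts, 0.80 for the 17 members with 10 or more counts in every library, 1.49 without femur S18 and 1.41 without mandible S16.

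**Figure D1:**
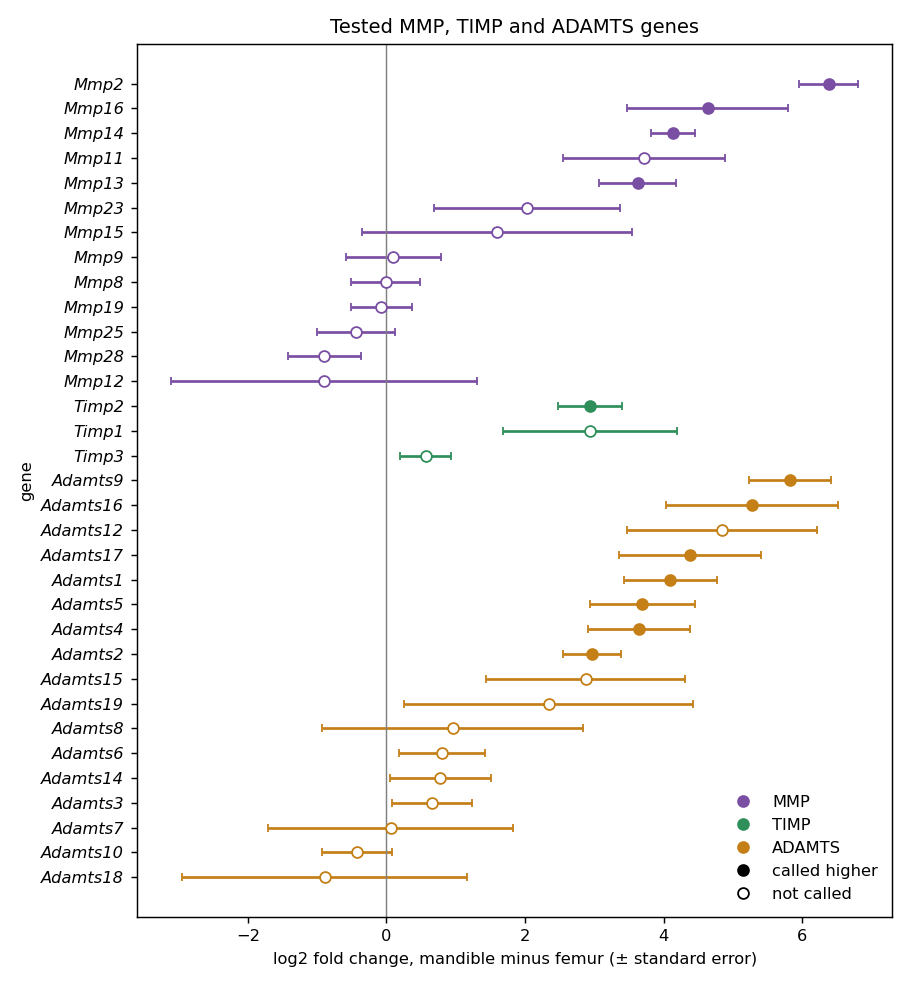
Log2 fold change (mandible minus femur, edgeR) of the 33 tested members on the horizontal axis, with bars for the standard error and genes ordered within the MMP, TIMP and ADAMTS families. Filled points are the 12 genes called higher in the mandible, from 2.94 for Timp2 to 6.38 for Mmp2, and open points were not called.

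Mmp2, Mmp14 and the inhibitor gene Timp2 were all higher in the mandible. Mmp2 encodes a gelatinase, and the membrane-anchored protease of Mmp14, with Timp2 protein bound to it, is known to activate the Mmp2 proenzyme. Mmp2 lies on chromosome 8 from 92827291 to 92853420 (GRCm38, + strand). Its expression was 1.27, 2.30 and 1.99 CPM in femur libraries S13, S15 and S18 and 89.5, 192 and 186 CPM in mandible libraries S16, S19 and S23. The lowest mandible library was thus far above the highest femur library, and the log2 fold change of 6.38 (standard error 0.43, edgeR, adjusted p = 1.3e-05) was the largest of all members tested.

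Mmp14 lies on chromosome 14 from 54431612 to 54445364. It was at 9.28, 7.14 and 6.32 CPM in S13, S15 and S18 and at 104, 123 and 174 CPM in S16, S19 and S23, a log2 fold change of 4.14 (standard error 0.32, edgeR, adjusted p = 3.7e-05). Timp2, on chromosome 11 from 118301069 to 118355740, was also detected well in the femur, at 30.2, 8.34 and 15.1 CPM in the same order. In the mandible libraries it reached 99.5, 113 and 199 CPM, a log2 fold change of 2.94 (standard error 0.46, edgeR, adjusted p = 0.0036). In each of the 3 genes all mandible libraries exceeded all femur libraries (p = 0.1 by exact two-sided permutation, which can go no lower in this design), and all 3 were called in every alternative, including each fit that left out 1 library. Leaving out a library moved the log2 fold change of Mmp2 between 6.16 and 6.67, that of Mmp14 between 3.85 and 4.32 and that of Timp2 between 2.52 and 3.55.

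**Figure D2:**
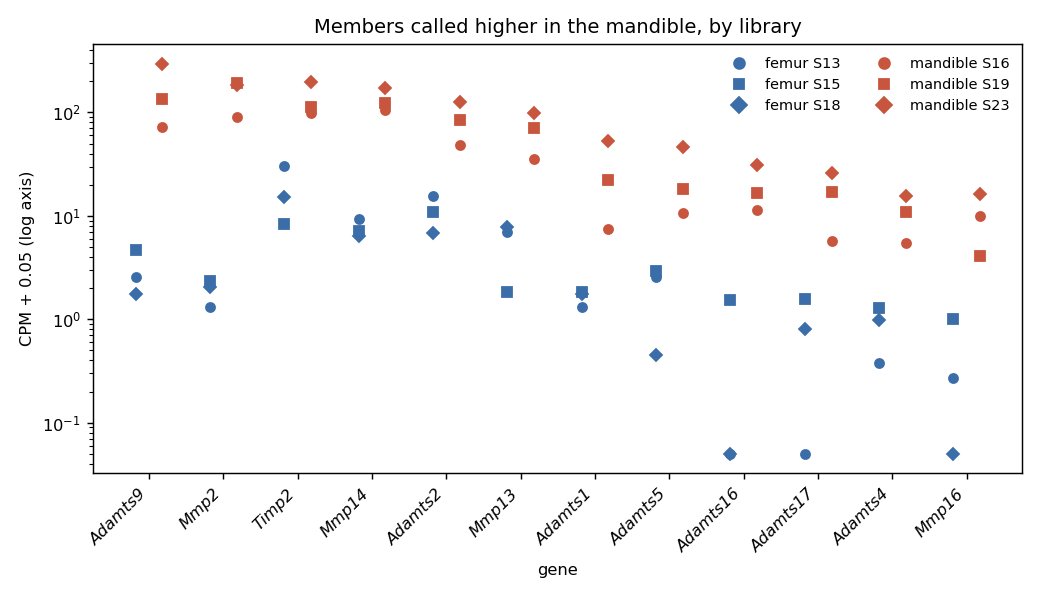
CPM plus 0.05 on a log axis for the 12 members called higher in the mandible, ordered by their mean in the mandible, with a point for each library (blue for femur, red for mandible). The groups of none of these genes overlap, and mandible S23 is the highest library for 11 of the 12, all but Mmp2.

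The order of the mandible libraries was shared by most of the called members. In 10 of the 12, S16 was lowest, S19 intermediate and S23 highest, and several marker sums stood in the same order. The osteoblast and mesenchymal markers were at 8922, 11696 and 15347 CPM, the markers of tooth-forming cells at 5720, 7297 and 11223 CPM, and those of epithelium at 92.5, 100.5 and 128.9 CPM. Markers of T and NK cells had this order too, at 48.3, 67.6 and 103.2 CPM. The monocyte markers stood in the reverse order, at 3354, 2982 and 1649 CPM, as did the sums of B cell and endothelial markers. The remaining marker lists, skeletal muscle and chondrocytes among them, held neither order. These orders are those of sums, and single markers within a list differed. In S16, S19 and S23 the osteoblast marker Col1a1 was at 4738, 5629 and 7038 CPM, but Ibsp at 189, 78.3 and 199 CPM. Of the markers of tooth-forming cells, Amelx was at 3039, 3649 and 6469 CPM, but Dspp at 23.9, 27.2 and 5.78 CPM. Of those of epithelium, Krt14 was at 39.5, 42.3 and 46.8 CPM, but Krt5 at 36.2, 32.9 and 51.02 CPM. S23 was also the library with Xist and no count of Ddx3y, and it had the fewest counts on genes (15718782). Its counts are labelled with another prefix than those of the other libraries, and the meaning of the prefix is not given. The part of these cell types in the members' values was not tested.

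Among the collagenases, Mmp13 differed between the sites and Mmp8 was not called. Mmp13, the main collagenase of osteoblasts and hypertrophic chondrocytes in the mouse, had 126, 39 and 175 counts in S13, S15 and S18 and 707, 1476 and 1711 counts in S16, S19 and S23. This corresponds to 6.96, 1.80 and 7.73 CPM in the femur and 35.4, 70.1 and 97.9 CPM in the mandible, a log2 fold change of 3.62 (standard error 0.55, edgeR, adjusted p = 0.0030). Every mandible library was above every femur library, and the femur libraries held at least 39 counts each. The remaining collagenase genes Mmp1a and Mmp1b had counts in S15 alone (12 counts of Mmp1a) or in no library, and reads of close gene copies such as these may have been split or dropped in the counting.

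Mmp13 and Mmp8 belong to a cluster of MMP genes on chromosome 9, where 9 members lie between 7272514 and 7699585 (427 kb, GRCm38). Mmp13 is at its left end, followed by Mmp12, Mmp1b, Mmp3, Mmp1a, Mmp10, Mmp8, Mmp27 and Mmp7. Apart from Mmp13 and Mmp8, no member of the cluster exceeded 18 counts in any library. Mmp3 had 18 counts in S23 and 6 in S15, Mmp27 had 12 or fewer in each library, and Mmp7 and Mmp10 had 2 and 1 counts in S15 and none elsewhere. Mmp12, the elastase of macrophages, had 13, 15 and 14 counts in S15, S18 and S19 and none in the other 3 libraries.

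The promoters of the cluster are shown because their sequences share motifs while the genes differ in expression. RefSeq promoter sequences (GRCm38.p6) were matched for 31 of the 45 members, 7 of the 12 called ones and all 9 of the cluster, and the 250 bases before each start were searched on both strands for the AP-1 motif TGAGTCA, the RUNX motif AACCACA, the TATA motif TATAAA and the GC box GGGCGG. The AP-1 motif was present in 7 of the 31 members, Mmp13, Mmp12, Mmp1b, Mmp3, Mmp1a, Mmp10 and Mmp7, all from the cluster, and in 4.46% of all 32851 promoter windows. The AP-1 and TATA motifs stood together in 6 of these 7, without Mmp12, and in 0.721% of all windows. Capitals mark the motifs in the stretches that end at the base before each RefSeq start, read 5′ to 3′ on the strand of the gene, with the AP-1 motif of Mmp13 appearing as its reverse complement.
Mmp13 (chr9:7272374-7272513, + strand): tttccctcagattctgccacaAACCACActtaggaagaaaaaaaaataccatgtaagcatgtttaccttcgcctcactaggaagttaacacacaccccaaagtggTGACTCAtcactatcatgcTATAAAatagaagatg
Mmp3 (chr9:7445742-7445821, + strand): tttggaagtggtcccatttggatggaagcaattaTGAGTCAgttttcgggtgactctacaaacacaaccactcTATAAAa
Mmp1a (chr9:7464061-7464140, + strand): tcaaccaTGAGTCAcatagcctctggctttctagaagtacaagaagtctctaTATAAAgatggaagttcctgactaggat
Mmp10 (chr9:7502262-7502341, + strand): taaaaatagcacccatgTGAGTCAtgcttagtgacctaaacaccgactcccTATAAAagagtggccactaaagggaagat
Mmp8 (chr9:7558349-7558428, + strand): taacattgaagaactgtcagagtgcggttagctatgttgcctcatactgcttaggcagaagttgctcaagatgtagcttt
In Mmp13 the AP-1 motif began 35 bases and the TATA motif 16 bases before the start, and a RUNX motif began 119 bases before it. RUNX motifs were found in 3 matched members, Mmp13, Mmp27 and Mmp7, and in 4.4% of all windows. None of these letters occurred in the window of Mmp8, the other abundant gene of the cluster. The 6 members that carried the AP-1 motif besides Mmp13 had at most 18 counts in any library. The promoter of Mmp14, shown for contrast, held GC boxes and no AP-1 or TATA motif.
Mmp14 (chr14:54431518-54431597, + strand): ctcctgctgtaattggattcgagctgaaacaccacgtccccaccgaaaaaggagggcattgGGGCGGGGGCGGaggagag
GC boxes were present in 16 of the 31 matched members and in 32.7% of all windows. A match is a sequence of letters and shows no binding of a factor.

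**Figure D3:**
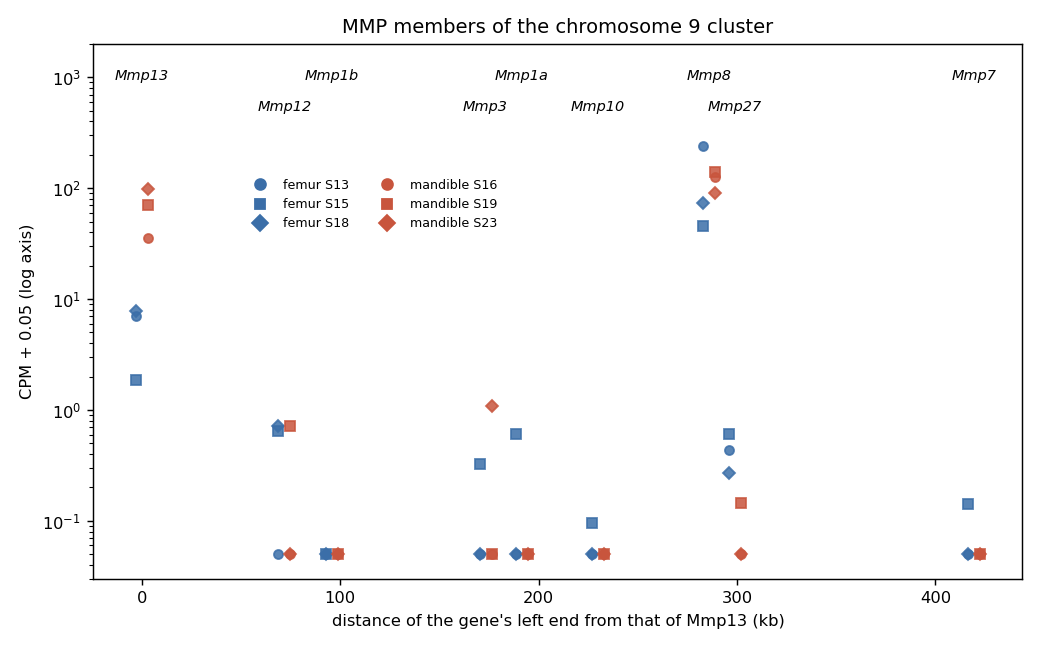
CPM plus 0.05 (log axis) of the 9 MMP members of the chromosome 9 cluster against the distance of each gene from Mmp13 in kb, with a point for each library (blue for femur, red for mandible). Mmp13 is higher in every mandible library, Mmp8 is high in both groups with overlapping libraries, and the 7 other genes lie near or at 0.

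Mmp8, Mmp9 and Mmp25, whose products are known from neutrophils, were abundant and were not called. Mmp8, the neutrophil collagenase, was at 238, 45.8 and 73.0 CPM in S13, S15 and S18 and at 126, 139 and 89.6 CPM in S16, S19 and S23. Mmp9, which encodes a gelatinase that osteoclasts also make, was at 288, 23.1 and 52.5 CPM in the femur and 135, 163 and 91.6 CPM in the mandible. Mmp25, a protease held to the membrane of leukocytes by a lipid anchor, was at 54.9, 10.4 and 18.8 CPM in the femur and 17.1, 32.0 and 12.8 CPM in the mandible. The femur libraries spread more widely than the mandible libraries in all 3 genes, and the mandible values lay inside the femur range.

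The log2 fold changes were -0.011 (standard error 0.50) for Mmp8, 0.10 (standard error 0.69) for Mmp9 and -0.44 (standard error 0.56) for Mmp25, and edgeR's adjusted p was 0.80 for Mmp25 and higher for the others. Femur library S13 had the highest value of each gene, and without it the log2 fold change was 1.00 for Mmp8, 1.78 for Mmp9 and 0.50 for Mmp25, none of them called. The summed neutrophil markers were 33637, 3940 and 24313 CPM in S13, S15 and S18 and 7338, 10903 and 4145 CPM in S16, S19 and S23. Within each skeletal site all 3 genes followed the order of this sum, with S13 above S18 above S15 in the femur and S19 above S16 above S23 in the mandible. All 12 neutrophil markers had a log2 fold change below 0, with a median of -0.82, and S100a8 was called lower. The contribution of neutrophils to these values was not tested.

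**Figure D4:**
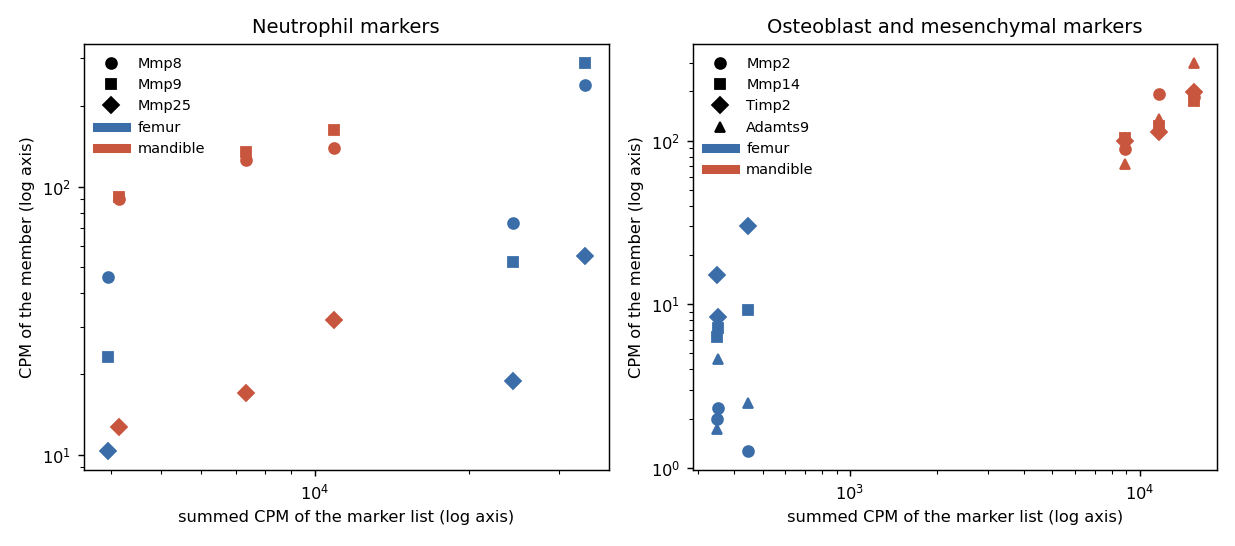
CPM of a member against the summed CPM of a marker list in the same library, both on log axes, with blue for femur and red for mandible libraries. On the left, Mmp8, Mmp9 and Mmp25 are plotted against 12 neutrophil markers and rise with their sum within each site, and on the right, Mmp2, Mmp14, Timp2 and Adamts9 are plotted against 14 osteoblast and mesenchymal markers, with the femur libraries at 347 to 445 CPM and the mandible libraries at 8922 to 15347 CPM.

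Of the other membrane-type MMPs, Mmp16 was called and Mmp15 was not. Mmp16 had 4, 21 and 0 counts in S13, S15 and S18 and 197, 85 and 283 counts in S16, S19 and S23, a log2 fold change of 4.64 (standard error 1.16, edgeR, adjusted p = 0.042). The call was lost in each of 5 fits that left out S13, S16, S18, S19 or S23 (edgeR, adjusted p 0.064 to 0.18). It was also lost under limma-voom (adjusted p = 0.12) and without normalization factors (edgeR, adjusted p = 0.065). Mmp15 had at most 38 counts in any library and a log2 fold change of 1.60 (standard error 1.95). Mmp17 and Mmp24 had at most 30 and 25 counts, in S15 for both genes, and were not tested.

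The stromelysin gene Mmp11, which is known from stromal fibroblasts, had 2, 6 and 8 counts in S13, S15 and S18 and 48, 71 and 74 counts in S16, S19 and S23. Its groups did not overlap, but the log2 fold change of 3.71 had a standard error of 1.17 and did not pass (edgeR, adjusted p = 0.11), while DESeq2 called it (adjusted p = 0.0052) and the other alternatives that tested it did not (adjusted p 0.11 to 0.38). Exons of Mmp11 and of Chchd10, which had 38 to 57 counts in femur libraries and 268 to 301 in mandible libraries, overlap by 155 bases on opposite strands, and the counting is not stated to use the strand. Mmp19 and Mmp28, both known from epithelia and macrophages, had overlapping groups and were not called. Mmp19 was at 8.01, 17.1 and 16.04 CPM in S13, S15 and S18 and at 18.4, 9.92 and 10.8 CPM in S16, S19 and S23, a log2 fold change of -0.074 (standard error 0.44). Mmp28 had 5.41 to 13.7 and 4.05 to 7.17 CPM, a log2 fold change of -0.90 (standard error 0.53). Both share exonic bases with a gene on the opposite strand, Mmp19 789 bases with Tmem198b and Mmp28 466 bases with 1700020L24Rik, and these genes had 82 to 187 and 38 to 375 counts. Mmp23 showed discordant mandible libraries, with 0 counts in S16 but 182 and 178 in S19 and S23, against 12 to 43 in the femur, and Mmp21 did not exceed 7 counts.

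The inhibitors differed from each other. Beside Timp2, Timp1 was low throughout, with 9, 2 and 12 counts in S13, S15 and S18 and 24, 85 and 60 counts in S16, S19 and S23. Every mandible library was above every femur library, but the log2 fold change of 2.93 had a standard error of 1.26 and was not called (edgeR, adjusted p = 0.27). Timp3, whose protein binds to the matrix and also inhibits ADAMTS proteases, was at 63.4, 27.4 and 55.4 CPM in the femur and 46.6, 69.8 and 100.3 CPM in the mandible. Its groups overlapped, and the log2 fold change was 0.57 (standard error 0.37, edgeR, adjusted p = 0.53). Timp4 had 9 counts in S15 and 3 in S19 and none elsewhere. In GENCODE M21, Timp1, Timp3 and Timp4 lie inside the synapsin genes Syn1, Syn3 and Syn2 on the opposite strand, and Timp3 shares 1733 exonic bases with Syn3, which had at most 51 counts in any library.

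Set per gene length, which allows levels of different genes to be compared, Timp3 was the leading inhibitor transcript in every femur library and Timp2 in every mandible library. The level of Timp2 per kb of gene length was 0.914, 0.585 and 0.524 times that of Timp3 in S13, S15 and S18 and 4.11, 3.12 and 3.81 times that of Timp3 in S16, S19 and S23. Timp2 made up 38.1 ± 7.06% of the summed TIMP level in the femur and 72.8 ± 5.11% in the mandible (SD, n = 3).

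The proteoglycanases were the ADAMTS group with the most called members, 4 of 6 tested. Adamts9, on chromosome 6 from 92772699 to 92943492, encodes a protease that cuts aggrecan and versican. Its expression was 2.49, 4.65 and 1.72 CPM in S13, S15 and S18 and 72.2, 136 and 297 CPM in S16, S19 and S23, a log2 fold change of 5.83 (standard error 0.60, edgeR, adjusted p = 0.00026). S23 was the highest and S16 the lowest mandible library, and the gene was called under every alternative. Exons of Adamts9 overlap those of A730049H05Rik and Gm15737 on the opposite strand, but these had at most 5 and 15 counts.

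Adamts1 and Adamts5, which are neighbours on chromosome 16 with 53.1 kb between them, were both called. Adamts5 encodes the main aggrecanase of mouse cartilage. Adamts1 was at 1.27, 1.80 and 1.72 CPM in the femur and 7.36, 22.4 and 52.7 CPM in the mandible, a log2 fold change of 4.10 (standard error 0.67, edgeR, adjusted p = 0.0044). Adamts5 was at 2.49, 2.86 and 0.398 CPM in the femur and 10.5, 18.1 and 45.8 CPM in the mandible, a log2 fold change of 3.70 (standard error 0.76, edgeR, adjusted p = 0.015). In both genes S23 was several times higher than S16. The call of Adamts5 was lost without S19 and without S23 (edgeR, adjusted p 0.060 and 0.095), while that of Adamts1 was kept in all fits that left out 1 library. Under limma-voom both calls were lost (adjusted p 0.053 for Adamts5 and 0.089 for Adamts1).

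Adamts4, a further aggrecanase, was low, with 6, 27 and 21 counts in S13, S15 and S18 and 107, 228 and 273 counts in S16, S19 and S23. The log2 fold change was 3.65 (standard error 0.74, edgeR, adjusted p = 0.014), and the call was lost in the fits without S13, S18, S19 or S23 (edgeR, adjusted p 0.059 to 0.086). Adamts15 was discordant among the mandible libraries, with 251, 11 and 80 counts in S16, S19 and S23 against 0, 45 and 7 in the femur, and was not called. Adamts8, its neighbour at 20.1 kb, had at most 44 counts, and Adamts20 had 80 counts in S15 and at most 41 elsewhere.

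Of the procollagen N-proteinases, which remove the amino-terminal propeptide of fibrillar procollagens, Adamts2 was called. It was at 15.6, 10.8 and 6.72 CPM in S13, S15 and S18 and at 48.2, 84.8 and 125 CPM in S16, S19 and S23, a log2 fold change of 2.97 (standard error 0.42, edgeR, adjusted p = 0.0019), and it kept its call under every alternative. Adamts3 and Adamts14 overlapped between the groups. Adamts3 had 3.48 to 11.6 CPM in femur libraries and 7.64 to 12.7 CPM in mandible libraries, and Adamts14 had 1.46 to 5.76 and 3.51 to 11.5 CPM, with log2 fold changes of 0.66 (standard error 0.58) and 0.78 (standard error 0.73).

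Adamts16, Adamts17 and Adamts12 had at most 17 counts in the femur outside library S15. Adamts16 had 0, 32 and 0 counts in S13, S15 and S18 and 228, 346 and 538 counts in S16, S19 and S23. Adamts17, whose human counterpart is known from a syndrome of short stature and lens defects, had 0, 33 and 17 counts in the femur and 113, 356 and 450 counts in the mandible. Adamts12, known to cleave cartilage oligomeric matrix protein, had 0, 17 and 0 counts in the femur and 87, 191 and 173 counts in the mandible. All mandible libraries of these genes were above all femur libraries.

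The fitted differences of these 3 genes were large and imprecise. The log2 fold change of Adamts16 was 5.28 (standard error 1.24, edgeR, adjusted p = 0.032), that of Adamts17 4.38 (standard error 1.03, edgeR, adjusted p = 0.031) and that of Adamts12 4.85 (standard error 1.37, edgeR, adjusted p = 0.074), so that Adamts12 was not called. The mean CPM over the 3 mandible libraries was 39.8 times that over the 3 femur libraries for Adamts16 and 29.8 times for Adamts12, and S15 held all femur counts of both genes. Without S15, the fitted log2 fold change of Adamts16 was 11.58 and Adamts12 was called, as it was under DESeq2, with no filter and after a length correction (adjusted p 9.6e-05 to 0.048 over these 4, and 0.074 to 0.24 under the others that tested it). The call of Adamts16 was lost without S13, S18, S19 or S23 (edgeR, adjusted p 0.059 to 0.13), under DESeq2 (adjusted p = 0.12), under limma-voom (adjusted p = 0.059) and without normalization factors (edgeR, adjusted p = 0.054), and that of Adamts17 without S18, S19 or S23 (edgeR, adjusted p 0.11 to 0.14) and under limma-voom (adjusted p = 0.12).

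Adamts10, which is known to bind fibrillin microfibrils, was the most abundant ADAMTS transcript of the femur and was not called. It was at 43.1, 167 and 40.1 CPM in S13, S15 and S18 and at 58.7, 43.5 and 84.8 CPM in S16, S19 and S23. The high mean of the femur rested on S15, and the log2 fold change of -0.42 (standard error 0.50, edgeR, adjusted p = 0.79) became 0.54 without that library. Adamts6, at 3.20 to 9.14 CPM in femur libraries and 4.40 to 16.7 CPM in mandible libraries, was not called. Adamts7, Adamts18 and Adamts19 had at most 67, 37 and 62 counts and were not called. Adamts13, which cleaves von Willebrand factor, had 29 and 31 counts in S13 and S15 and none in S18 or in the mandible libraries, and was not tested.

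Per kb of gene length, Mmp8 and Mmp9 led the MMP transcripts of the femur, and Mmp2, Mmp13 and Mmp14 took a larger share in the mandible. The summed MMP level was 199, 41.0 and 61.1 CPM per kb in S13, S15 and S18 and 159, 224 and 199 CPM per kb in S16, S19 and S23, so that the groups overlapped through S13. Mmp8 and Mmp9 together made up 90.0, 62.0 and 73.5% of it in the femur and 56.5, 46.2 and 31.5% in the mandible. Mmp2, Mmp13 and Mmp14 made up 2.28, 6.23 and 7.43% in the femur and 36.0, 46.5 and 60.7% in the mandible.

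Mmp8 had the highest mean level per kb in both groups, at 49.1 CPM per kb in the femur and 48.7 in the mandible. Mmp2 followed in the mandible with 46.2 CPM per kb, against 0.550 in the femur, where it was the gene ranked 16 of 45. The summed TIMP level was 15.5, 5.51 and 11.0 CPM per kb in S13, S15 and S18, below all 3 mandible libraries with 30.6, 39.8 and 63.1. As a ratio to the summed MMP level this gave 0.130 ± 0.051 in the femur and 0.229 ± 0.076 in the mandible (SD, n = 3), with S18 at 0.179 and S19 at 0.178, so that the libraries of the groups overlapped. The summed ADAMTS level was 10.1, 29.0 and 8.49 CPM per kb in S13, S15 and S18 and 30.1, 40.9 and 75.9 in S16, S19 and S23, so that S15 came close to the lowest mandible library. Adamts10 contributed 51.8 to 70.0% of it in femur and 12.9 to 23.6% in mandible libraries, and Adamts9 1.07 to 1.64% and 15.9 to 26.0%.

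**Figure D5:**
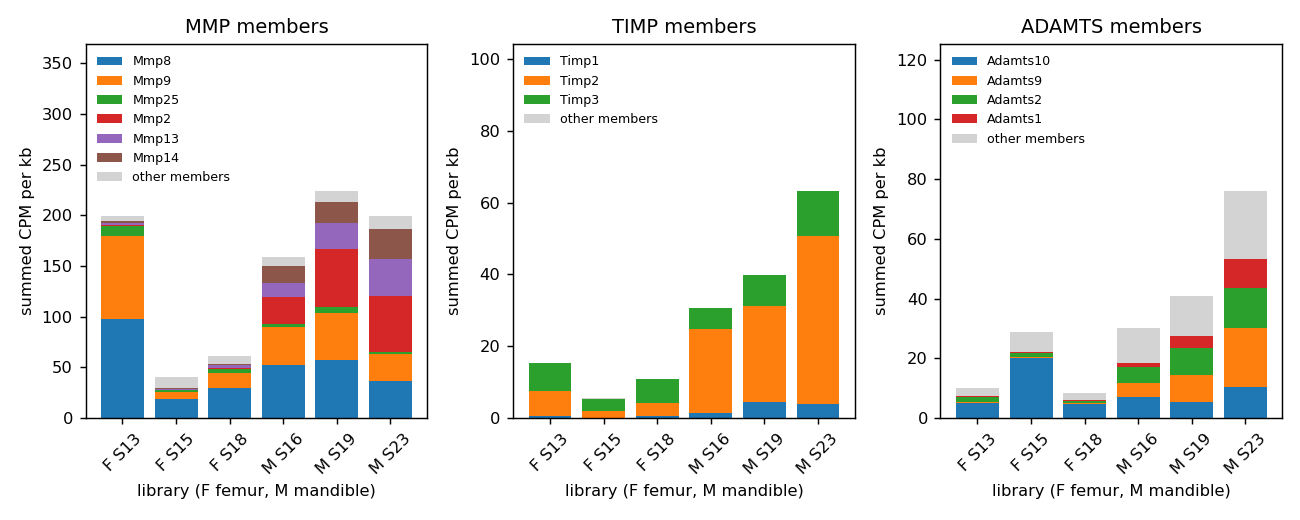
Summed level of the MMP, TIMP and ADAMTS members in CPM per kb of gene length (vertical axes) in each library (F femur, M mandible), stacked by gene. In the MMP panel Mmp8 and Mmp9 fill 62.0 to 90.0% of the femur bars and 31.5 to 56.5% of the mandible bars, and in the TIMP panel Timp2 fills 32.5 to 46.0% and 67.0 to 76.9%.

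A list of 44 other genes of extracellular proteolysis and matrix assembly was read from the same fit. Of its 41 tested members, 10 were higher and 0 lower in the mandible, where 3.88% and 1.3% of all tested genes were, and their median log2 fold change was 1.81. Papln, which encodes a relative of the ADAMTS proteins that lacks the protease domain, had the largest difference of the called genes, at 0, 1.70 and 0 CPM in S13, S15 and S18 and 181, 150 and 383 CPM in S16, S19 and S23. Its log2 fold change was 8.66 (standard error 1.10, edgeR, adjusted p = 0.00087). Sparc, a collagen-binding matrix protein, Loxl2, a collagen crosslinking enzyme, and Pcsk5, a proprotein convertase, followed among the called genes with 5.27, 4.45 and 4.15 (edgeR, adjusted p 1.3e-05 to 0.032).

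The other 3 of the 4 most abundant genes of that list, beside Sparc, were not called. Lrp1, the endocytic receptor that clears several MMPs and ADAMTS proteases, had a log2 fold change of 1.61 (edgeR, adjusted p = 0.060). Bsg, which encodes the MMP inducer basigin, and the sheddase gene Adam10 had log2 fold changes of -0.30 and 0.024 (edgeR, adjusted p 0.73 and 0.99).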

How the data were processed

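Monocytes of the bone marrow of mandible and femur were compared in 6 RNA-seq libraries, 3 per site. Reads had been trimmed by the authors (Trimmomatic), aligned by HISAT2 (version 2.1.0 per the labels) and summed per gene by featureCounts. The deposited table holds these raw counts, all of them whole numbers. The strand and multi-mapping settings of the counting are not given in the sources used here. The methods name GRCm38, but only 2979 of the 52029 genes shared with GENCODE M21 had a table interval inside the M21 gene, and gene positions here are those of M21, joined on the Ensembl identifier.

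Counts were fitted over the whole table by edgeR 4.0.16 under R 4.3.3 (quasi-likelihood test, TMM, no covariates, prior count 0.125). Low genes were removed by filterByExpr, set to a count of 10 and a total of 15. The call, as in the study's methods, was a 2-fold difference with an adjusted p (Benjamini-Hochberg) below 0.05. The standard error is the log2 fold change divided by the square root of the F statistic. For single genes, log2(CPM + 0.125) was permuted exactly between the groups (scipy 1.17.1, two-sided), with 0.1 as the smallest p. Levels per length divide CPM by the table's gene length. The scripts were tested on simulated data. Alternatives were DESeq2 1.42.0, limma-voom 3.58.1, RLE and no normalization factors, 3 other filters, a loess correction for gene length (span 0.4), other thresholds, and each library left out in turn.

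Members and gene lists were chosen with earlier results of these data known. Every tested member could be named. Values in every library are given for called members, for the 5 members with the highest mean CPM and for a set list of others. From the list of other genes, the 4 most abundant by mean CPM and the 4 called ones that differed most were named. The TATA and GC box motifs, and Chchd10 and other genes named for their overlap, were chosen after the values were seen. Some genes of these families are not reported here. Lists of B cell, T and NK cell and endothelial markers were also read, in which Ebf1 was called higher and no other gene was called.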

Additional observations from a re-analysis of the deposited data

How the results depend on the processing

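Of the 12 members called higher, 6 (Mmp2, Mmp13, Mmp14, Timp2, Adamts2 and Adamts9) kept their call under all 16 alternatives and the other 6 lost it under at least 1, and 0 changed direction. The number called higher was 6 under limma-voom, 7 where every library needed 10 counts (17 members tested), 7 at an adjusted p under 0.01, and 7 to 13 when 1 library was left out (7 without S19 or S23). Over all tested genes the number called higher was 507, 511 and 384 under the first 3 of these, and 376 to 957 when 1 library was left out, against 702 in the main fit. The number called lower was 0 under every alternative. The median log2 fold change of the tested members was 3.02 under limma-voom, 0.74 with no filter (44 members tested, where the median of all genes was -1.09), 2.86 with a filter at a mean CPM of 1, 0.80 where every library needed 10 counts, 1.99 after the length correction (all genes -0.18), and 1.41 to 2.91 when 1 library was left out. The tested members had a median length of 5430 bases against 3671 over all tested genes, and 13 were called higher after the length correction.

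Direction was unstable in some of the genes that were not called, while others, such as Mmp11, Mmp28 and Timp1, kept theirs under every alternative that tested them. Mmp8 was 0.0061 under DESeq2, 0.33 under limma-voom, 0.0064 with RLE size factors, 0.14 without normalization factors and 0.014 after the length correction. The length correction also gave -0.050 for Mmp9, -0.031 for Timp3 and -0.23 for Adamts7, and limma-voom gave -0.044 for Mmp23. Leaving out 1 library gave -0.44 to 1.00 for Mmp8, -0.44 to 1.78 for Mmp9, -0.96 to 0.50 for Mmp25, -0.77 to 0.54 for Adamts10, -0.40 to 0.068 for Mmp19, -0.84 to 0.99 for Adamts7 and -3.64 to 0.50 for Adamts18. The causes were not tested. No paired analysis was possible because the animal behind each library is not given, and the replicate numbers, which are unique to each library, do not show it. With 3 libraries per site, fold changes of genes with few counts are imprecise. S15 alone gave most femur counts of some low members, such as Adamts12, Adamts16 and Mmp16, but not of others, such as Timp1 and Mmp11.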
